A study of Mus musculus with 9 samples.

Results

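The transcription factors that specify and maintain midbrain dopaminergic neurons were examined in RNA from mouse substantia nigra. The 9 genes were chosen by name: Nr4a2, Pitx3, En1, En2, Foxa1, Foxa2, Lmx1a, Lmx1b and Sox6. They are 9 of 55450 genes in the deposited counts, and all 9 passed the filter that left 20892 genes for testing. Bulk RNA sequencing was done on 9 libraries, in 3 groups of 3 labelled A, B and C. CTR was tissue of CX3CR1-CreERT2 mice given a Cre-dependent control vector, whose protein is GFP in the labels and destabilized GFP in the paper, CX3 was tissue of the same line given a synuclein-expressing vector, and DAT was tissue of DAT-Cre mice given that synuclein-expressing vector. Per the paper, Cre-dependent lentivirus was injected into the nigra of both sides 5 weeks before the tissue was collected, and CX3CR1-CreERT2 mice received tamoxifen for 4 days. The mice were adult, of 8 weeks at injection by one description and 9 weeks when purchased by another. CX3CR1-CreERT2 directs Cre to microglia and other cells that express Cx3cr1, and DAT-Cre directs it to cells that express the dopamine transporter. Each Cre sits at that gene, so the level of Cx3cr1 in CTR and CX3, and of Slc6a3 in DAT, is that of an altered locus. DAT differs from CTR in the mouse line, in tamoxifen and in the vector, which cannot be told apart. By design, CX3 differs from CTR in the vector, and from DAT in the line and in tamoxifen. The groups also differed in choroid plexus, pituitary and immunoglobulin V genes, as given below, which cannot be told apart from the design.

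Dopaminergic neurons of the ventral midbrain arise from the floor plate under the control of these factors. Lmx1a, Lmx1b, Foxa1, Foxa2, En1 and En2 act early in progenitors and young neurons, Nr4a2 and Pitx3 switch on and keep the genes of dopamine synthesis and transport, and several of them stay on in the adult nigra, where partial loss of some of them weakens the neurons in mice. Most are also used elsewhere: Lmx1b and En1 in serotonergic neurons of the hindbrain, Lmx1a and Foxa1 in neurons beside the subthalamic nucleus, and Sox6 in oligodendrocyte progenitors.

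Counts on genes ranged from 21592817 to 39475428 per library, and the floor of 3 counts equalled 0.0779 to 0.151 CPM, covering counting error only (CPM are counts scaled by the normalized library size). Choroid plexus genes summed to 33.97 to 36.62 CPM in CTR, 1467 to 1577 in CX3 and 867.1 to 1038 in DAT, and pituitary genes to 61.14 to 63.84, 5.892 to 6.102 and 18.34 to 23.54. The pituitary sum of DAT was mostly Pomc, with means of 17.2 CPM in DAT and 2.74 in CX3, while Gh had 0.103 and 0.216. Reads outside genes made up 5.45 to 5.58% of uniquely aligned reads in DAT and 8.36 to 10.01% in CTR and CX3. The number of animals per library is not given in the sources used here. The squared differences between libraries of 1 group, over those of random counts, had a median ratio of 1.43 to 1.78 in the pairs without CX3 A or DAT B, of 2.73 and 3.23 in the pairs with CX3 A, and of 4.62 and 5.40 in the pairs with DAT B, where the trimmed mean ratio reached 8.59 and 11.5. Immunoglobulin V genes, which each animal uses in its own proportions, had a mean ratio of 0.847 to 1.62 within groups and 55.1 to 411.5 between groups. The p-values and intervals therefore measure the spread between these libraries, which may be technical. DAT B and CX3 A stood apart in exon length: protein-coding genes with at least 10000 exon bases (1322 genes of at least 10 CPM) deviated from their group mean by a median of -0.13 and -0.09 on the log2 scale in these, and by -0.01 to 0.07 in the other 7 libraries.

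To show the start regions of factors that were higher together in CX3, the promoters of Pitx3, En1 and Lmx1b are given here, with that of Nr4a2, which was not called, beside them. RefSeq's table for GRCm38.p6 held promoters of 8 of the 9 genes, in 15 windows of 300 bases, from 250 before to 50 after a start. Letters searched on both strands were AAAGGTCA for NR4A receptors, TGTTTAC for forkhead factors, TAATTA for homeodomain factors, TAATCC for bicoid-type homeodomain factors such as Pitx3, and ACAATG or ACAAAG for SOX factors. Capitals mark a match. All 4 windows are written 5′ to 3′ on the strand of the gene, at chr19:46148276-46148575 (minus) for Pitx3, chr1:120602237-120602536 (plus) for En1, chr2:33641049-33641348 (minus) for Lmx1b and chr2:57123954-57124253 (minus) for Nr4a2.
Pitx3: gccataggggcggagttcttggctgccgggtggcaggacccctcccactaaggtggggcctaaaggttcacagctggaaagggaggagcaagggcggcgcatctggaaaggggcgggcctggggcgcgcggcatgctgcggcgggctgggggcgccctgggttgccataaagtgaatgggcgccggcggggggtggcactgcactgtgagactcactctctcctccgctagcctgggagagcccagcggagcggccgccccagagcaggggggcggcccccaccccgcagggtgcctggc
En1: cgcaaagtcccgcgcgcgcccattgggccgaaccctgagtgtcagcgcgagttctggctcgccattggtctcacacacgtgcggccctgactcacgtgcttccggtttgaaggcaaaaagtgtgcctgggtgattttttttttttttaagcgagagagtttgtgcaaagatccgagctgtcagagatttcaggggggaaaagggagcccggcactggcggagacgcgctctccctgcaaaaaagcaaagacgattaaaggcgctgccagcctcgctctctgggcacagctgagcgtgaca
Lmx1b: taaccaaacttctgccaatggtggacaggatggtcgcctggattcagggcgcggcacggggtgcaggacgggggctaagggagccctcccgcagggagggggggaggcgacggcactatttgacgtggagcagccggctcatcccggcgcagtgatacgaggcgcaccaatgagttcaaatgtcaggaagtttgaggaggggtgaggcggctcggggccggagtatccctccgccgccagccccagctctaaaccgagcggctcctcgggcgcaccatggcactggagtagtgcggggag
Nr4a2: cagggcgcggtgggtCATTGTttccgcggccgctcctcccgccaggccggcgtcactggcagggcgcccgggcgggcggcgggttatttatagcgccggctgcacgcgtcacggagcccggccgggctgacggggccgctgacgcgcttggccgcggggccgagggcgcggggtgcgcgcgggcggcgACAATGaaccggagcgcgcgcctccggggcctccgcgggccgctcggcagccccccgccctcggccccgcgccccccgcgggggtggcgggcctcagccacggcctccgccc
The windows of Pitx3, En1 and Lmx1b held none of these letters, and that of Nr4a2 held the SOX letters at -235 and -62 from the start. Over all 15 windows, the NR4A letters were found in 1 (of Sox6) against 1.51% of 32851 promoters, the forkhead letters in 1 (of Foxa1) against 3.65%, the TAATTA letters in 0 against 5.29%, the TAATCC letters in 1 (of Sox6) against 7.06%, and the SOX letters in 8 (of Nr4a2, Foxa1, Foxa2 and Sox6) against 28.6%. Sox6 and Foxa2 have several windows each, and most of the windows with SOX letters were those of Sox6. These counts of windows are therefore not counts of genes, and no excess over all promoters is read from them. GC made up 71.7% of the Pitx3 window, 57.0% of En1, 65.7% of Lmx1b and 81.7% of Nr4a2, against a median of 52.7% over all promoters.

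The factors differed widely in level. Per kilobase of exon in CTR, Nr4a2 was highest at 4.11 ± 0.0778 CPM per kb (SD, n = 3), followed by En1 at 3.87 ± 0.136, En2 at 2.36 ± 0.232 and Sox6 at 1.82 ± 0.0963. Foxa1 followed at 1.67 ± 0.0828, Lmx1a at 1.29 ± 0.118, Pitx3 at 1.18 ± 0.114, Lmx1b at 0.885 ± 0.152 and Foxa2 at 0.840 ± 0.152. Neighbours whose libraries overlapped in CTR were Sox6 with Foxa1, Lmx1a with Pitx3, and Lmx1b with Foxa2. In CX3 and DAT the order began with En1, at 5.19 ± 0.566 and 4.53 ± 0.101 CPM per kb, ahead of Nr4a2 at 4.33 ± 0.273 and 4.44 ± 0.300, and in DAT these libraries overlapped. Foxa2 was lowest in all 3 groups. No sequence of the read length, 76 bases, in a transcript of any of the 9 genes occurred in a transcript of another gene, and among the 9 genes Pitx3 alone shared exon bases with a neighbour, 0.655% with Elovl3 on the opposite strand.

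CX3 against CTR compared the synuclein-expressing vector with the control vector in the same mouse line. Pitx3, En1, En2 and Lmx1b were higher in CX3, by 1.22-fold to 1.54-fold, and none of the 9 was lower. That is 4 of 9, where 14.0% of all genes tested were called higher and 16.5% lower (edgeR's quasi-likelihood test, adjusted p below 0.05). Pitx3 alone also passed 1.5-fold, as 7.95% of all genes did in either direction. The libraries of the groups did not overlap for 5 of 9, Foxa1 being the fifth, and for 49.3% of all genes. The median log2 fold change of the 9 was 0.24, and that of all genes tested -0.00333. Scaling on pan-neuronal genes left 3 called higher, without En2, and 1 lower, Sox6 (log2 fold change -0.27, edgeR adjusted p = 0.0396).

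DAT against CTR compared the synuclein-expressing vector in the DAT-Cre line with the control vector in the other line, which alone received tamoxifen. En1 and Lmx1b were higher in DAT by 1.17-fold and 1.38-fold, a direction that turned when the libraries were scaled on pan-neuronal genes (log2 fold changes of -0.30 and -0.06), and none of the 9 was lower. Of all genes, 32.0% were called higher and 27.9% lower. None of the 9 was called at 1.5-fold or more, against 29.8% of all genes, and En1 alone did not overlap between groups, against 64.1%. The median log2 fold change was 0.05 over the 9 and -0.00381 over all genes. Scaling on pan-neuronal genes shifted the median of all genes to -0.53, and on that scale 0 of the 9 were called higher and 8 lower. With the library total as the only scaling, 0 were called higher and 2 lower, Foxa2 and Sox6.

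CX3 against DAT held the vector fixed and compared the lines, of which only CX3 received tamoxifen. Pitx3, En1 and En2 were higher in CX3 by 1.15-fold to 1.60-fold, and none of the 9 was lower. That is 3 of 9, where 27.6% of all genes were called higher and 31.3% lower. Pitx3 alone passed 1.5-fold, as 29.1% of all genes did, and 3 of 9 did not overlap between groups, against 61.0%. The median log2 fold change was 0.20 over the 9 and 0.01 over all genes. Scaling on pan-neuronal genes shifted the median of all genes to 0.48, and all 9 were then called higher, while the library total as the only scaling gave 6 higher and 0 lower.

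**Figure D1:**
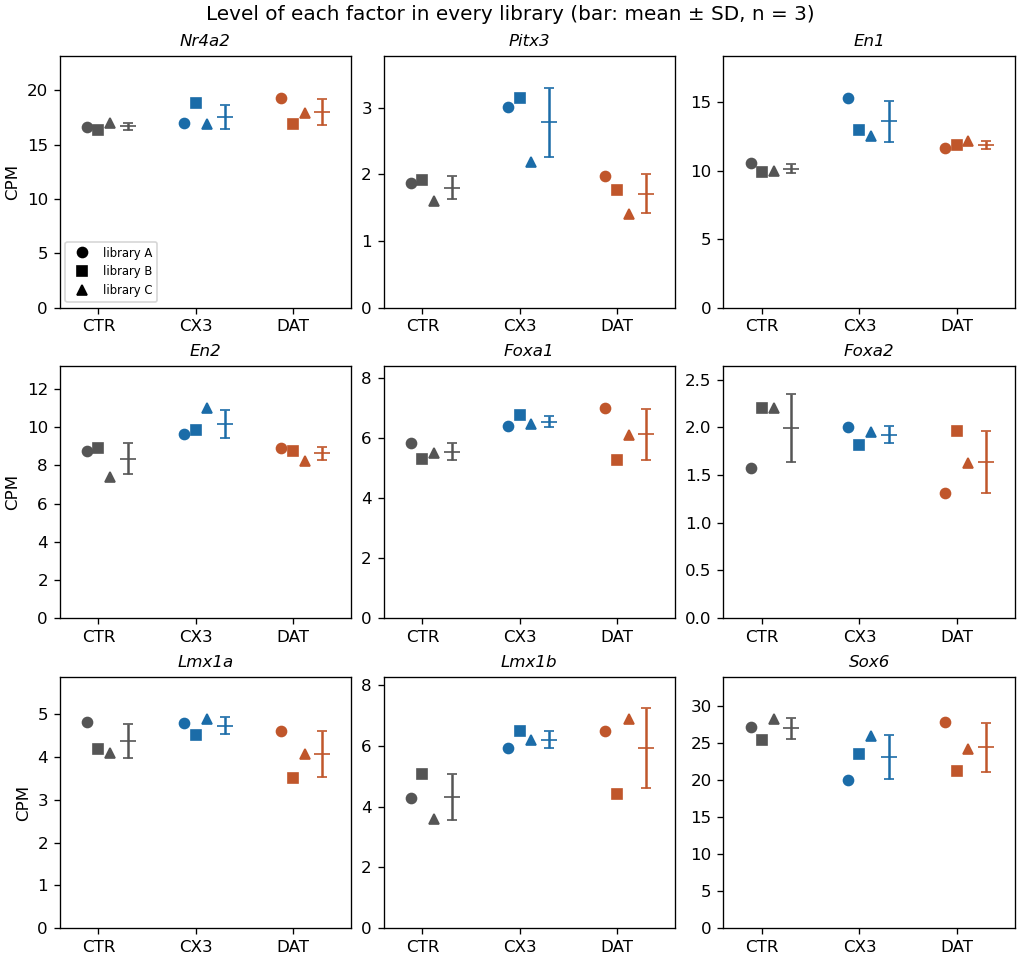
CPM of each of the 9 factors in every library, with 1 panel per gene and each vertical axis starting at 0; the shape of a point gives the library letter, and bars give the mean ± SD of 3 libraries. The CX3 libraries lay above all CTR libraries for Pitx3, En1, En2, Foxa1 and Lmx1b.

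Pitx3 (ENSMUSG00000025229.15, chromosome 19 from 46135685 to 46148326 on GRCm38, minus strand) encodes a paired-like homeodomain factor that nigral dopaminergic neurons need to survive and that drives Th and Slc6a3. It had 1.87, 1.92 and 1.60 CPM in CTR A, B and C, 3.01, 3.15 and 2.19 in CX3 and 1.97, 1.76 and 1.40 in DAT. CX3 A and B stood well above every CTR and DAT library, and CX3 C lay just above the highest of them. On the log2 scale the difference was 0.62 ± 0.176 (SE) in CX3 over CTR (95% interval 0.24 to 1.00, edgeR adjusted p = 0.0158) and 0.67 ± 0.184 in CX3 over DAT (0.28 to 1.07, adjusted p = 0.00592). In DAT over CTR it was -0.05 (-0.48 to 0.37, adjusted p = 0.838). These values rest on 32 to 116 counts per library. The call against CTR was lost without CTR C (adjusted p = 0.0715), CX3 A (0.0515) or CX3 B (0.0701) and in counts of the first strand (0.0788), and that against DAT was kept throughout, with adjusted p from 7.55e-05 to 0.0329.

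En1 (ENSMUSG00000058665.8, chromosome 1 from 120602418 to 120607992, plus strand) and En2 (ENSMUSG00000039095.8, chromosome 5 from 28165694 to 28172166, plus strand) encode the engrailed homeodomain factors, which pattern the midbrain and hindbrain and maintain adult dopaminergic neurons. En1 had 10.6, 9.94 and 9.97 CPM in CTR A, B and C, 15.3, 13.0 and 12.6 in CX3 and 11.6, 11.9 and 12.2 in DAT. The 3 groups did not overlap: CTR was lowest, DAT was between, and CX3 was highest, with CX3 A above the other two. En1 was higher by 0.42 ± 0.0812 (log2, SE) in CX3 than in CTR (95% interval 0.25 to 0.60, edgeR adjusted p = 0.00132), and this call was kept under each alternative, with adjusted p from 8.70e-06 to 0.0204. In DAT over CTR it was 0.22 ± 0.0857 (0.04 to 0.41, adjusted p = 0.0362). That call was lost without any 1 of CTR A, CTR B, CTR C, DAT A or DAT C, with adjusted p from 0.0649 to 0.140, and with DESeq2 (0.0976). It was also lost in counts of either strand, with only the 2 groups fitted and with the library total. Scaling on pan-neuronal genes turned its direction. In CX3 over DAT the log2 fold change was 0.20 ± 0.0821 (0.02 to 0.38, adjusted p = 0.0495). This call was lost without CX3 A (0.158), CX3 B (0.0552), DAT A (0.104) or DAT C (0.0588), with DESeq2 (0.120) and with the library letter as a block.

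En2 had 8.74, 8.90 and 7.40 CPM in CTR A, B and C, 9.63, 9.85 and 10.99 in CX3 and 8.91, 8.75 and 8.25 in DAT. Every CX3 library was above every other library, and CTR and DAT overlapped. Fitted log2 fold changes were 0.28 ± 0.0890 (SE) in CX3 over CTR (95% interval 0.09 to 0.47, edgeR adjusted p = 0.0283), 0.23 ± 0.0914 in CX3 over DAT (0.03 to 0.43, adjusted p = 0.0424) and 0.05 in DAT over CTR (-0.15 to 0.25, adjusted p = 0.669). The call against CTR was lost without CTR C (0.136), CX3 B (0.0505) or CX3 C (0.122), and with DESeq2 (0.0570). It was also lost in first-strand counts and with scaling on pan-neuronal genes. The call against DAT was lost without CX3 B (0.0622), CX3 C (0.119) or DAT C (0.0891), with DESeq2 (0.101) and with the library letter as a block.

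Lmx1b (ENSMUSG00000038765.13, chromosome 2 from 33560965 to 33640511, minus strand) and Lmx1a (ENSMUSG00000026686.14, chromosome 1 from 167689237 to 167848741, plus strand) encode LIM homeodomain factors of floor plate progenitors and adult dopaminergic neurons. Lmx1b had 4.27, 5.08 and 3.60 CPM in CTR A, B and C, 5.92, 6.47 and 6.20 in CX3 and 6.47, 4.43 and 6.89 in DAT. The CX3 libraries lay close together above CTR, while DAT A and C reached the CX3 level and DAT B fell within the CTR range. Its log2 fold change was 0.51 ± 0.150 (SE) in CX3 over CTR (95% interval 0.19 to 0.83, edgeR adjusted p = 0.0191) and 0.47 ± 0.156 in DAT over CTR (0.13 to 0.80, adjusted p = 0.0189). It was 0.04 in CX3 over DAT (-0.27 to 0.36, adjusted p = 0.821). Without CTR A, CTR C or CX3 B the first call was lost (0.0644, 0.0970 and 0.0646), as in first-strand counts (0.0895). Without CTR A, CTR C, DAT A or DAT C the second was lost (0.0630, 0.106, 0.0979 and 0.101). The second was also lost in counts of either strand, with only the 2 groups fitted and with the library total. Scaling on pan-neuronal genes turned its direction. CX3 A and DAT B, the libraries with the lowest values of long genes, were both left out, a choice made after seeing the data. Lmx1b was then higher in DAT than in CTR by 0.59 (edgeR adjusted p = 3.49e-05).

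Lmx1a had 4.83, 4.17 and 4.10 CPM in CTR A, B and C, 4.80, 4.50 and 4.90 in CX3 and 4.61, 3.52 and 4.08 in DAT. The 3 groups overlapped, and no comparison was called. The log2 fold change was 0.12 in CX3 over CTR (95% interval -0.13 to 0.37), -0.08 in DAT over CTR (-0.34 to 0.19) and 0.20 in CX3 over DAT (-0.06 to 0.46), with edgeR adjusted p of 0.479, 0.606 and 0.177. A difference of the size seen in Lmx1b over CTR lay outside the first of these intervals, which cover only the spread between these libraries.

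Nr4a2 (ENSMUSG00000026826.13, chromosome 2 from 57106830 to 57124003, minus strand) encodes the orphan nuclear receptor that switches on dopamine synthesis and transport genes. It had 16.65, 16.4 and 17.0 CPM in CTR A, B and C, 17.0, 18.8 and 16.85 in CX3 and 19.3, 16.85 and 17.9 in DAT. The groups overlapped, with CTR at the low end. The log2 fold change was 0.07 in CX3 over CTR (95% interval -0.07 to 0.22, edgeR adjusted p = 0.448), 0.12 in DAT over CTR (-0.03 to 0.27, adjusted p = 0.151) and -0.05 in CX3 over DAT (-0.19 to 0.10, adjusted p = 0.580). The interval for CX3 over CTR did not reach 1.5-fold in either direction. It covers only the spread between these libraries, which may be technical, so a change of that size between animals is not excluded.

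Foxa1 (ENSMUSG00000035451.7, chromosome 12 from 57540628 to 57546916, minus strand) and Foxa2 (ENSMUSG00000037025.11, chromosome 2 from 148042877 to 148046969, minus strand) encode forkhead factors that open chromatin in floor plate cells and work with Nr4a2 in dopaminergic neurons. Foxa1 had 5.85, 5.30 and 5.50 CPM in CTR A, B and C, 6.41, 6.76 and 6.48 in CX3 and 6.99, 5.28 and 6.10 in DAT. Every CX3 library was above every CTR library, and the DAT libraries spanned both groups. The log2 fold change of 0.24 in CX3 over CTR (95% interval 0.02 to 0.46) did not pass the adjustment over all genes (edgeR adjusted p = 0.0980), and those of 0.17 in DAT over CTR (-0.07 to 0.40) and 0.08 in CX3 over DAT (-0.15 to 0.30) did not either (0.209 and 0.563).

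Foxa2 had 1.58, 2.20 and 2.20 CPM in CTR A, B and C, 1.999, 1.82 and 1.95 in CX3 and 1.32, 1.96 and 1.62 in DAT. The groups overlapped, and the DAT libraries ranged from below all others to within CTR. Fitted log2 fold changes were -0.05 in CX3 over CTR (95% interval -0.43 to 0.33, edgeR adjusted p = 0.852), -0.33 in DAT over CTR (-0.75 to 0.09, adjusted p = 0.157) and 0.28 in CX3 over DAT (-0.13 to 0.69, adjusted p = 0.230). Foxa2 had 37 to 80 counts per library, and its interval for DAT over CTR, 0.596-fold to 1.06-fold, leaves a fall of more than 1.5-fold possible.

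Sox6 (ENSMUSG00000051910.13, chromosome 7 from 115470872 to 116038796, minus strand) encodes an HMG-box factor that marks ventral nigral dopaminergic neurons and is also made by oligodendrocyte progenitors. It had 27.2, 25.4 and 28.3 CPM in CTR A, B and C, 19.99, 23.5 and 25.9 in CX3 and 27.8, 21.2 and 24.1 in DAT. The CX3 libraries lay mostly under CTR, but CX3 C overlapped CTR B. The log2 fold change was -0.22 ± 0.0982 (SE) in CX3 over CTR (95% interval -0.43 to -0.01, edgeR adjusted p = 0.109), -0.13 in DAT over CTR (-0.35 to 0.09, adjusted p = 0.287) and -0.09 in CX3 over DAT (-0.31 to 0.13, adjusted p = 0.465). Sox6 has 14832 exon bases, and its lowest libraries, CX3 A and DAT B, were those with low values of long genes. Without both, the log2 fold change of Sox6 in CX3 over CTR was -0.12 (adjusted p = 0.0872). Oligodendrocyte progenitor genes summed to 171.7 to 174 CPM in CTR, 129.7 to 135.8 in CX3 and 200.9 to 209.3 in DAT, with none at 0, and their part in the Sox6 level was not tested.

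**Figure D2:**
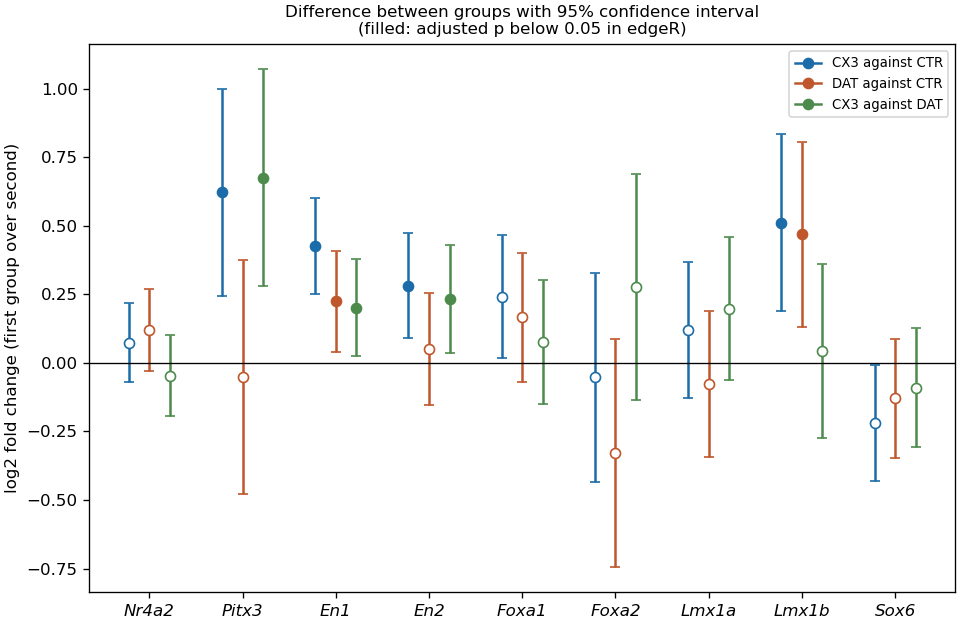
Log2 fold change of each factor in the 3 comparisons, with its 95% confidence interval; filled points have an adjusted p below 0.05 in edgeR. Pitx3 lay at 0.62 in CX3 against CTR and 0.67 in CX3 against DAT but at -0.05 in DAT against CTR, and En1 and Lmx1b in DAT against CTR, shown above 0, fell to -0.30 and -0.06 when scaled on pan-neuronal genes.

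Genes with the most similar profile were sought for the 4 called factors among 14288 protein-coding genes of at least 1 CPM, by the root mean square distance of centred log2 CPM over the 9 libraries. Nearest to Pitx3 were D930048N14Rik (0.13 log2 units), Rasl11a (0.13) and Vip (0.15). Nearest to En1 were Zbtb7b (0.07), Tbkbp1 (0.08) and Cuedc1 (0.08). Nearest to En2 were Lysmd4 (0.06), Atf1 (0.07) and Cmc1 (0.07), and nearest to Lmx1b were Tjp3 (0.10), Kcnmb2 (0.10) and Tvp23a (0.12). Only the 3 nearest of 14288 genes were kept per factor. That no gene of dopamine synthesis or transport and no other of the 9 factors is among them was likely beforehand. It does not show whether those genes varied with the factors.

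The genes of dopamine synthesis and transport, which define the neurons, were compared beside the factors. In CX3 against CTR, 9 of 10 dopaminergic neuron genes were higher and 0 lower, with a median log2 fold change of 0.59 against 0.24 for the factors. Th, the rate-limiting enzyme of dopamine synthesis, had a mean of 81.6 CPM in CTR, 100.6 in CX3 and 68.4 in DAT (log2 fold change 0.30 in CX3 over CTR, edgeR adjusted p = 0.000117). Slc6a3, the dopamine transporter, had 130.0, 195.5 and 91.1 CPM, Slc18a2, the vesicular monoamine transporter, 76.0, 113.5 and 82.4, and Ddc, the decarboxylase that makes dopamine, 109.7, 164.6 and 92.3. Log2 fold changes in CX3 over CTR were 0.59 for Slc6a3, 0.58 for Slc18a2, 0.59 for Ddc, 0.60 for Gch1, which makes the cofactor of Th, 0.71 for the dopamine receptor Drd2, 0.18 for the GDNF receptor Ret, 0.80 for the transporter Slc10a4 and 0.73 for the nicotinic receptor subunit Chrna6. Aldh1a1, the aldehyde dehydrogenase of ventral nigral neurons, was the exception at 0.03 (adjusted p = 0.602).

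In DAT against CTR, 4 of these 10 genes were higher and 5 lower. Lower were Slc6a3 by a log2 fold change of -0.51, Chrna6 by -0.56, Aldh1a1 by -0.48, Th by -0.25 and Ddc by -0.25, and higher were Ret by 0.61, Drd2 by 0.58, Slc10a4 by 0.51 and Slc18a2 by 0.12, while Gch1 was at 0.00147 (edgeR adjusted p = 0.990). With scaling on pan-neuronal genes 0 were higher and 7 lower, Slc18a2 and Slc10a4 having turned. In bulk tissue, fewer cells of a type and less RNA per cell cannot be told apart. Serotonergic neuron genes, which mark cells that also use Lmx1b and En1, moved as well: 2 of 4 were higher and 1 lower in CX3 against CTR, and 2 higher in DAT against CTR. With scaling on pan-neuronal genes 0 were higher and 2 lower in DAT. Among them, Tph2, the serotonin synthesis enzyme, had 9.28 CPM in CTR, 16.8 in CX3 and 10.9 in DAT, and Htr1a, a serotonin receptor, 11.7, 10.1 and 12.75 CPM. These genes summed to 24.78 to 26.04 CPM in CTR, 34.74 to 35.39 in CX3 and 29.56 to 31.33 in DAT, with none at 0, and their part in the levels of Lmx1b and En1 was not tested.

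To place the factors against the neurons they serve, each was divided by the mean of Th, Slc6a3, Slc18a2 and Ddc in the same library. That mean was higher in CX3 than in CTR by 0.51 on the log2 scale and lower in DAT than in CTR by a difference of -0.22. In CX3 against CTR, the ratio of Nr4a2 differed by -0.44, Foxa1 by -0.27, Foxa2 by -0.55, Lmx1a by -0.40 and Sox6 by -0.74, all without overlap of the libraries (exact permutation p = 0.1 for each, the smallest that 3 against 3 libraries can give). A lower ratio without overlap was found for 78.5% of all genes, so 5 of 9 is not beyond the background. Nr4a2 stood at 17.2, 16.9 and 17.6% of the reference in CTR and 12.2, 13.6 and 12.3% in CX3. Pitx3 (0.10), En1 (-0.10), En2 (-0.23) and Lmx1b (0.02), the called factors, overlapped between groups on this scale, with exact permutation p of 0.6, 0.4, 0.2 and 0.9.

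In DAT against CTR the ratio was higher without overlap for Nr4a2 (0.33), En1 (0.45), En2 (0.28), Foxa1 (0.36) and Lmx1b (0.67), 5 of 9 where 48.3% of all genes did the same. Nr4a2 reached 23.3, 20.2 and 21.7% of the reference in DAT. Without Slc6a3 in the reference, the gene at which Cre is placed in DAT-Cre mice, 3 remained, Nr4a2, En1 and En2. In CX3 against DAT the ratio was lower without overlap for 8 of 9, the exception being Pitx3 (-0.05, exact permutation p = 0.7), where 72.1% of all genes did the same. Pitx3 was at 2.18, 2.28 and 1.60% of the reference in CX3 and 2.40, 2.14 and 1.73% in DAT.

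**Figure D3:**
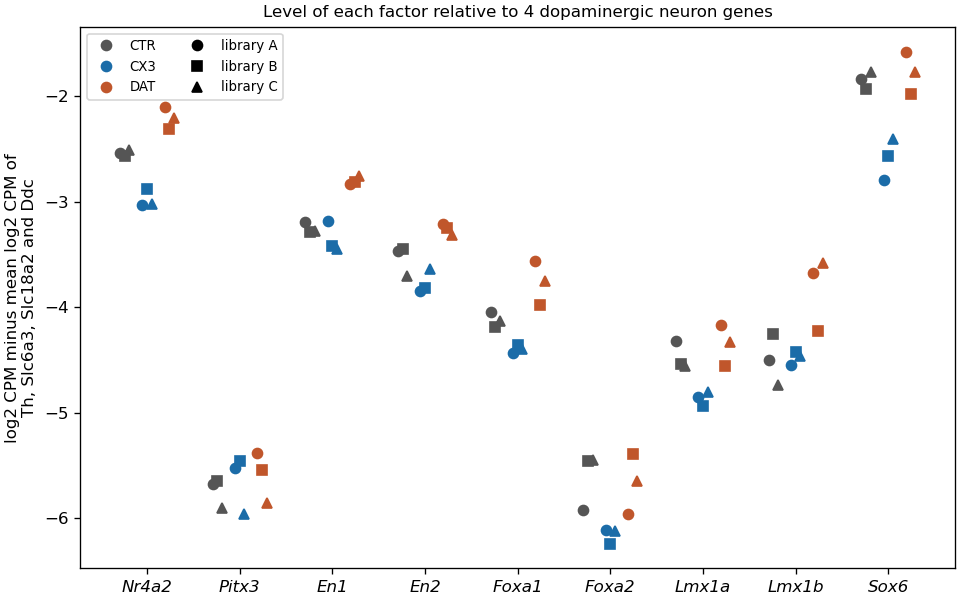
Log2 CPM of each factor minus the mean log2 CPM of Th, Slc6a3, Slc18a2 and Ddc, for every library; colours give the group and shapes the library letter. CX3 libraries lay lowest for Nr4a2, Foxa1, Foxa2, Lmx1a and Sox6, and all 3 groups overlapped for Pitx3.

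Relatives of the factors in the same families were looked up beside them. Of 7 paralogs, 6 were tested, and in CX3 against CTR 1 was higher and 3 lower. Nr4a1 and Nr4a3, nuclear receptors induced by neuronal activity, had means of 23.1 and 6.14 CPM in CTR, 13.9 and 3.40 in CX3 and 24.2 and 5.66 in DAT, with log2 fold changes of -0.73 and -0.86 in CX3 over CTR, while Nr4a2 stayed at 0.07. Pitx1, a relative of Pitx3, had 0.336, 0.151 and 0.191 CPM in the 3 groups. Sox5, the partner of Sox6, had 20.01, 18.5 and 23.7 CPM, and Sox13 11.9, 16.5 and 21.2. Foxa3, the liver relative of Foxa1 and Foxa2, had a mean of 0.0842 CPM in CTR and 0.0347 in CX3, about the floor, and 0 counts in the DAT libraries, and did not pass the filter. In DAT against CTR, 3 paralogs were higher, Sox5 and Sox13 among them, and 0 lower, against 1 higher and 3 lower with scaling on pan-neuronal genes, where Sox5 turned, and in CX3 against DAT 0 were higher and 5 lower, or 2 lower on that scale.

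Among 17 other transcription factors of midbrain dopaminergic neurons, 5 were higher and 4 lower in CX3 against CTR, 11 higher and 1 lower in DAT against CTR, and 0 higher and 10 lower in CX3 against DAT. With scaling on pan-neuronal genes these counts became 5 higher and 9 lower in DAT against CTR and 8 higher and 3 lower in CX3 against DAT, and with the library total 8 and 2, and 4 and 8. Among the most abundant were Tcf4 (183.9 CPM in CTR, 169.1 in CX3 and 183.5 in DAT) and Myt1l (105.3, 122.7 and 180.2). Of 13 floor plate and midbrain patterning signals, 11 were tested, and 1 was higher and 0 lower in CX3 against CTR, 7 higher and 2 lower in DAT against CTR, but 1 higher and 4 lower there with scaling on pan-neuronal genes. Ptch1, the receptor of Shh, had 101.5, 97.5 and 141.9 CPM and Lrp6, a Wnt co-receptor, 64.2, 61.05 and 70.8 CPM in CTR, CX3 and DAT.

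Marker genes of other cell types also differed between the groups, and not all in the directions of the factors. Pan-neuronal genes were higher in 4 of 8 and lower in 2 in CX3 against CTR, and higher in 7 of 8 and lower in 0 in DAT against CTR (3 higher and 4 lower when scaled on their own sum), with Snap25 at 1362, 1785 and 2230 CPM and Map2 at 875.3, 651.1 and 934.8 in CTR, CX3 and DAT. Subthalamic and mammillary genes, which mark neurons beside the nigra that share Lmx1a and Foxa1, were lower in 4 of 4 in CX3 and higher in 4 of 4 in DAT against CTR (2 with pan-neuronal scaling), with Lhx5 at 9.41, 7.51 and 14.0 CPM and Foxb1 at 6.80, 3.92 and 11.9. Genes of other ventral midbrain neurons were higher in 2 and lower in 4 of 9 in CX3 and higher in 7 and lower in 0 in DAT (5 and 2 with pan-neuronal scaling), with Gad2 at 236.7, 235.1 and 432.1 CPM and Gad1 at 285.9, 243.4 and 579.3. Of the oligodendrocyte progenitor genes, 2 of 4 were lower in CX3 and 3 of 4 higher in DAT (1 higher and 3 lower with pan-neuronal scaling), with Pdgfra at 76.0, 60.35 and 92.0 CPM and Gpr17 at 58.65, 36.5 and 56.4. Of the microglia genes, 4 of 5 were lower in CX3 and 5 of 5 in DAT, with Csf1r at 200.3, 134.3 and 157.7 CPM and Cx3cr1 at 102.3, 44.6 and 83.4.

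Cerebellar neuron genes, of cells that also express En1 or En2 in development, were higher in 2 of 4 tested and lower in 1 in CX3 and higher in 3 and lower in 0 in DAT against CTR (2 and 1 with pan-neuronal scaling), with Calb2 at 216.3, 163.8 and 241.4 CPM and Zic1 at 89.4, 104.3 and 125.5 in CTR, CX3 and DAT. The granule cell genes of that list, named after their values were seen, did not move alike. Fat2 had 0.569, 1.58 and 14.2 CPM (24.8-fold higher in DAT than in CTR, edgeR adjusted p = 6.88e-11) and Cbln3 0.622, 0.680 and 1.48 CPM (2.35-fold, adjusted p = 0.000453). Gabra6 had means at or under 0.111 CPM in each group and did not pass the filter. Pcp2 of the same list, also named after its values were seen, had 0.202, 0.107 and 0.0420 CPM and did not pass either. Whether the abundant genes of this list came from cerebellar cells was not tested. Choroid plexus genes were higher in 6 of 6 in both, with Ttr at 20.03, 1457 and 852.8 CPM and Kl at 7.41, 24.2 and 38.0. Of 4 pituitary genes tested, 3 were lower in CX3 and 2 in DAT (4 with pan-neuronal scaling), with Pomc at 17.85, 2.74 and 17.2 CPM and Gh at 34.7, 0.216 and 0.103. Of the ependymal genes, 1 of 4 was higher in CX3 and 4 of 4 in DAT (1 with pan-neuronal scaling), with Foxj1 at 19.1, 18.4 and 25.0 CPM and Ccdc153 at 0.377, 1.32 and 1.53. Forebrain excitatory neuron genes were called in 0 of 3 tested in CX3 and higher in 3 of 3 in DAT (0 with pan-neuronal scaling), with Neurod6 at 2.82, 2.48 and 4.49 CPM. No called gene of any list turned direction in CX3 against CTR under the 3 other scalings, whereas in DAT against CTR scaling on pan-neuronal genes turned Ptch1, Tph2, Zic1, Foxj1 and Pdgfra, besides Sox5, Slc18a2 and Slc10a4, among those named. The part of these cells in the levels of the 9 factors was not tested.

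**Figure D4:**
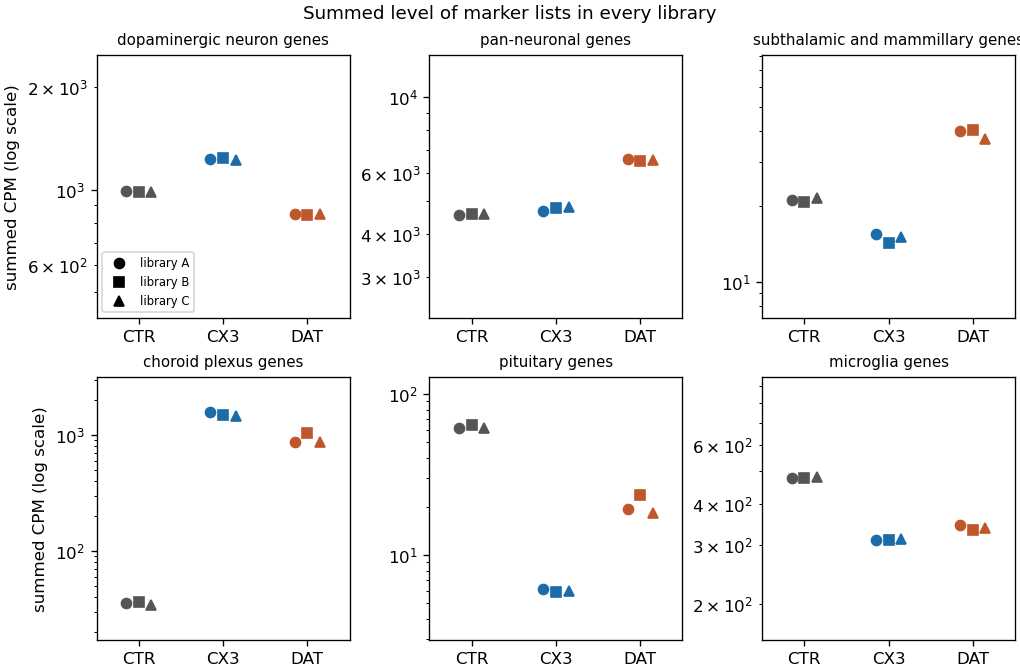
Summed CPM of 6 marker lists in every library on log axes; shapes give the library letter. Choroid plexus genes ranged from 33.97 to 36.62 CPM in CTR and from 1467 to 1577 in CX3, and dopaminergic neuron genes, on the main scaling, from 981.3 to 992.4 in CTR, 1224 to 1237 in CX3 and 840.1 to 848.6 in DAT.

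**Figure D5:**
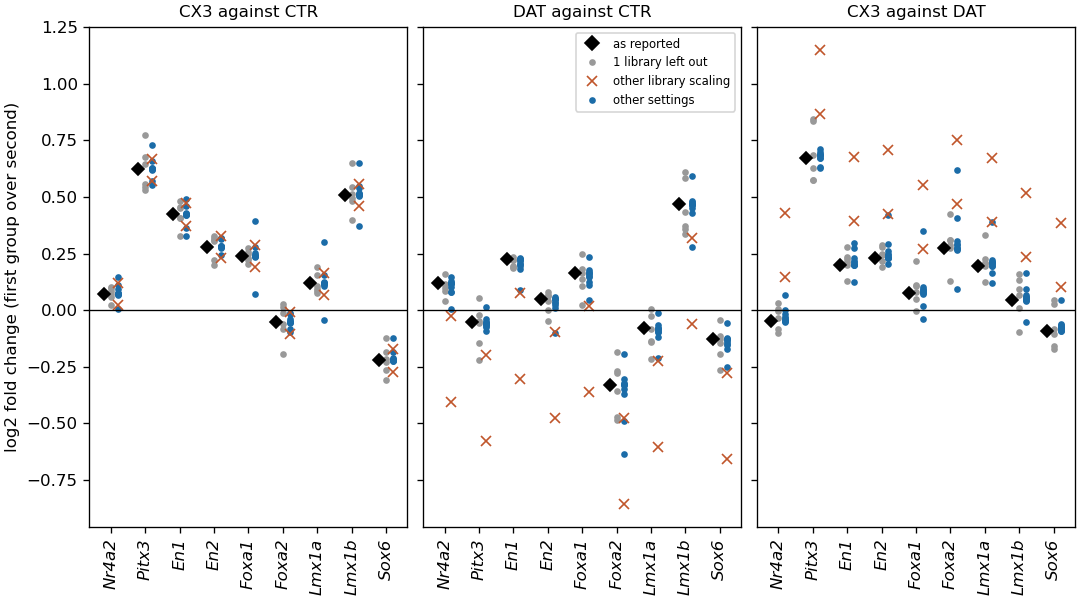
Log2 fold change of each factor as reported (diamonds), with 1 library left out (grey points), with other scaling of the libraries (crosses) and under the other settings (blue points), in the 3 comparisons. En1 in CX3 against CTR stayed between 0.33 and 0.49, and in DAT against CTR the crosses for Nr4a2, En1, En2, Foxa1 and Lmx1b reached below 0.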

How the data were processed

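Nigral RNA of 9 libraries was read from the counts per gene that the authors deposited, without normalization, after Trimmomatic and STAR on mm10. The deposited layout is that of STAR's gene counts, while the submitters' notes also name featureCounts. All 55450 identifiers were in GENCODE M21. The kit is described as stranded, but each strand held about the same share of counts (49.8 to 49.9% on the second strand), so both strands were counted together.

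The test was edgeR 4.0.16 (R 4.3.3), by quasi-likelihood with TMM scaling, filterByExpr and Benjamini-Hochberg adjustment over 20892 genes, with all 9 libraries in 1 fit and no covariate. Intervals use the fitted standard error. Ratios used log2 CPM with a prior count of 0.5 and an exact 2-sided permutation test. Profiles used a pseudocount of 0.02 CPM. Promoters came from RefSeq. The fit was tested on simulated counts. Alternatives covered scaling, filters, DESeq2 1.42.0, strands, left-out libraries and a block for library letters. Deviations of same-letter libraries had correlations of -0.471 to 0.378 over 9 pairs, which showed no common pairing by letter. CX3 A and DAT B, of different letters, correlated at 0.576 and weigh on these values, so a pairing is not excluded.

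The 9 genes and all lists were chosen with earlier results of these data known. Named were all 9 factors, the dopaminergic neuron genes and paralogs in full, the most abundant genes of each other list, and the 3 nearest profiles of each called factor. Some genes that this rule names are not reported here. Plots used matplotlib and pandas in Python.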

Additional observations from a re-analysis of the deposited data

How the results depend on the processing

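Over the log2 fold changes of the 9 factors, 234 values kept their direction and call, 25 lost the call, 19 gained it and 19 turned direction under settings other than leaving out 1 library, and 123, 25, 3 and 11 did so with 1 library left out. The cause was not tested where a call changed. Scaling on the library total shifted the median log2 fold change of all genes to -0.15 in DAT against CTR and 0.20 in CX3 against DAT, and scaling on pan-neuronal genes to -0.53 and 0.48.

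In CX3 against CTR, 4 factors were called, all higher, 3 higher (En2 lost) with DESeq2's test, 5 higher with the library total, 3 higher and 1 lower with pan-neuronal scaling, 1 in first-strand counts, and 1 to 4 with 1 library left out. At 1.5-fold or more, 1 was called, 0 with pan-neuronal scaling, first-strand counts, or CX3 A and DAT B both left out, 2 in second-strand counts, and 0 to 2 with 1 library left out. Lmx1a turned to -0.0448 in second-strand counts, and Foxa2 ranged from -0.19 to 0.0274 with 1 library left out.

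In DAT against CTR, 2 were called, both higher, while the library total gave 0 higher and 2 lower. There was 1 called with DESeq2 size factors, with every gene of at least 1 count or with DESeq2's test, 0 by strand or with only the 2 groups fitted, and 8, all lower, with pan-neuronal scaling. With 1 library left out, 0 to 2 were called. At 1.5-fold or more, 0 were called, 3 with pan-neuronal scaling, 1 with CX3 A and DAT B left out, and 0 to 1 with 1 library left out. Pan-neuronal scaling turned Nr4a2 to -0.41, En1 to -0.30, En2 to -0.48, Foxa1 to -0.36 and Lmx1b to -0.0597. The library total turned Nr4a2 to -0.0266 and En2 to -0.10, first-strand counts En2 to -0.10 and second-strand counts Pitx3 to 0.0164. With 1 library left out, Pitx3 ranged from -0.22 to 0.0549, En2 from -0.0470 to 0.0789 and Lmx1a from -0.21 to 0.00362. Ratios without Slc6a3 left 3 factors without overlap instead of 5.

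In CX3 against DAT, 3 were called, 6 with the library total, 9 with pan-neuronal scaling, 1 with DESeq2's test and 1 to 3 with 1 library left out. At 1.5-fold or more, 1 was called, 5 with pan-neuronal scaling and 0 to 1 with 1 library left out. Nr4a2 turned to 0.15 with the library total, 0.43 with pan-neuronal scaling, and 0.0659 and 0.000881 by strand. Sox6 turned to 0.10, 0.38 and, in first-strand counts, 0.0440. Foxa1 turned to -0.0401 in second-strand counts and Lmx1b to -0.0527 with CX3 A and DAT B left out. With 1 library left out, Nr4a2 ranged from -0.10 to 0.0303, Foxa1 from -0.00276 to 0.22, Lmx1b from -0.0940 to 0.16 and Sox6 from -0.17 to 0.0440.

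With the library letter as a replicate block, 4 factors were called in CX3 against CTR, 2 in DAT against CTR and 1 instead of 3 in CX3 against DAT, where En1 (0.20, adjusted p = 0.0519) and En2 (0.23, adjusted p = 0.0636) were lost. Whether the letters pair the libraries was not settled. Leaving out CX3 A and DAT B, and the ratios without Slc6a3, were chosen after seeing the data. Depth limits Pitx3 and Foxa2 most, with under 120 counts in every library.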
